A study of Mus musculus with 4 samples.

Results

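The cells described here came from cultures of T-cell progenitors and carried mRNA of Bcl11b, the transcription factor whose activation marks commitment to the T-cell lineage. They were chosen by 3 counts in the single-cell data: at least 3 unique molecular identifiers (UMIs, counted mRNA molecules) of Bcl11b, at least 1 UMI of Il2ra, which encodes CD25, and none of Cd8b1, a gene of later T cells. Only barcodes that passed a quality filter entered (500 or more genes detected, mitochondrial UMIs below 10%). The rule gave 562 of 9332 cells in experiment 1 (6.02%, exact 95% interval 5.55 to 6.52) and 919 of 10214 in experiment 2 (8.997%, 8.45 to 9.57), or 1481 of 19546 in all. They are called Bcl11b-expressing cells. The cells they were set against had no Bcl11b UMI and at least 1 Il2ra UMI in the same experiment, 4632 and 2727 cells, and are called Bcl11b-zero cells. Because Bcl11b and Il2ra chose the cells, their own levels are given as a description, and every other comparison is read with that choice in mind. Per 1000000 UMIs, the Bcl11b-expressing cells held 208 of Bcl11b and 522 of Il2ra in experiment 1, and 197 and 330 in experiment 2.

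Early T-cell development runs through double-negative stages in which Notch signals from the stroma first switch on a T-cell program beside an inherited progenitor program. CD25 appears next, and Bcl11b then becomes active as progenitor regulators such as PU.1 (Spi1) and surface Kit decline. The CD3 chains, the kinase Lck and the pre-T-cell receptor alpha chain (Ptcra) form the signalling complex that the first rearranged receptor beta chain uses at the next checkpoint.

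The cells came from bone marrow of Bcl2 transgenic mice, which all groups share, and were grown on OP9-Dll1 stroma, which displays a Notch ligand, with IL-7 and Flt3-ligand (10 ng/ml for both). Progenitors of 8 to 10 week old B6.Bcl2 mice received MSCV-Runx1-mCherry or MSCV-empty-mCherry and were harvested on day 4 or 6. Progenitors of B6.Cas9;Bcl2 mice received E42-gRunx1-humanNGFR with E42-gRunx3-mTurquoise (3 guide pairs per gene), or E42-gControl vectors against luciferase, and were harvested on day 5 or 8. Vectors were added on day 2, and sorting kept live Lineage-, CD45+ cells with the vector reporters. The labels give 4 to 5 days in culture for experiment 1 and 4 to 8 days for experiment 2, and call the cells Phase 1 double-negative progenitors with high cKit. In each experiment 8 experimental replicates were marked with hashtags, short DNA tags on antibodies, and pooled into 1 library. The hashtag columns are named by sequence only, so no hashtag could be tied to a vector, a harvest day or a mouse strain. Each hashtag is therefore described as a sample of unknown condition, with values, ranges and medians and without tests. The 8 sequences are shown because they are the only identity the samples have here; they were the same in both experiments.

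Hashtag 1: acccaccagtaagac
Hashtag 2: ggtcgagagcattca
Hashtag 3: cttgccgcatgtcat
Hashtag 4: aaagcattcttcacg
Hashtag 5: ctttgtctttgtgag
Hashtag 6: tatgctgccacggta
Hashtag 7: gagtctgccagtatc
Hashtag 8: tatagaacgccaggc

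Bcl11b-expressing cells were present under every hashtag, in very unequal shares. In experiment 1 they made up 1.03% to 11.2% of the cells with a single hashtag, with a median of 4.57% over the 8 hashtags. Hashtags 3 and 4 were highest, with 126 and 130 cells (11.03% and 11.2%), and together held 51.7% of the Bcl11b-expressing cells that had a single hashtag. Hashtag 2 was lowest, with 12 cells (1.03%, 0.534 to 1.79). In experiment 2 the range was 0.803% to 22.7%, with a median of 4.14%. Hashtag 4 held 230 such cells (22.7%, 20.2 to 25.5) and hashtag 7 held 206 (20.3%, 17.8 to 22.9), together 67.0%, against 8.00% under hashtag 8 and at most 4.33% under the other 5. The same number in the 2 experiments need not mark the same condition.

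**Figure D1:**
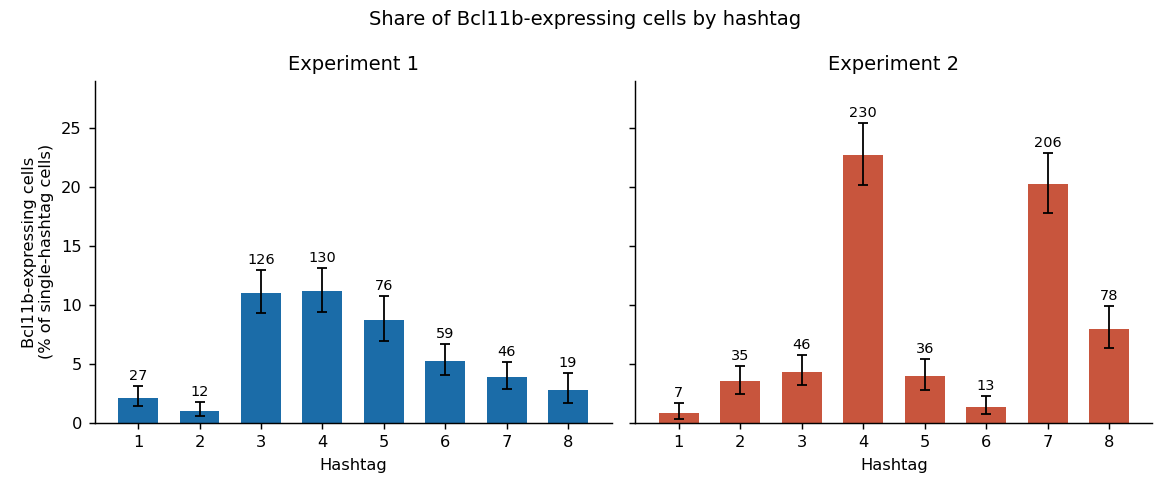
Share of Bcl11b-expressing cells among the cells with a single hashtag (vertical axis, percent), for each hashtag of experiment 1 (left) and experiment 2 (right). Bars give the share, whiskers the exact 95% interval for counting error and numbers the count of Bcl11b-expressing cells; hashtags 3 and 4 of experiment 1 reach 11.03% and 11.2%, and hashtags 4 and 7 of experiment 2 reach 22.7% and 20.3%.

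Il2ra-positive Cd8b1-zero cells made up 46.5% to 76.3% of single-hashtag cells in experiment 1, highest under hashtag 5, and 23.9% to 79.3% in experiment 2, highest under hashtag 7, with 44.7% under hashtag 4. Among Il2ra-positive Cd8b1-zero cells, the Bcl11b-expressing share was 9.49% in experiment 1 and 20.4% in experiment 2. By hashtag that share ran from 2.22% to 18.8% in experiment 1 and from 2.89% to 50.9% in experiment 2. Under hashtag 4 of experiment 2, 230 of 452 Il2ra-positive Cd8b1-zero cells met the rule (50.9%, 46.2 to 55.6).

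The Bcl11b-expressing cells were not deeper than the cells they were set against. Their median was 23891 UMIs in experiment 1 and 23648 in experiment 2, against 25647 and 29549 in Bcl11b-zero cells. Barcodes with more than 1 hashtag were 11.9% of the Bcl11b-expressing cells and 8.74% of the Bcl11b-zero cells in experiment 1, and 28.9% and 23.5% in experiment 2. For part of the results that rest on these doublets, values from single-hashtag cells are given beside them. Other values over all cells of experiment 2 include the doublets as well. There Bcl11a, Lmo2, Bex6, Bmyc and Ctsg, named below, stood higher over all Bcl11b-expressing cells than under any hashtag with at least 20 of them. The experiments shared 39 barcodes, 9 Bcl11b-expressing cells had a barcode that also occurs in the other experiment, and 1 barcode met the rule in both. The label "committing T progenitor" was checked against its other markers: Cd3g was called higher in both experiments, Lck was 1.95-fold in experiment 1, not called, and 2.06-fold in experiment 2, called, and Ptcra lay under the level minimum in both. Stromal, erythroid, granulocyte and B-lineage lists are given further below.

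Levels are given as counts per 1000000 UMIs summed over the cells of a group (CPM). A gene was compared where the mean of both groups was at least 20 CPM with at least 10 UMIs over them, and it was called higher or lower where the CPM ratio was at least 2-fold with an exact 95% interval that excluded 1. Because a mean was used, a gene could meet the minimum through 1 group alone. Such genes tend to ratios away from 1, so the counts called and the list medians are read with that limit. In experiment 1 this held for the leading higher genes Cd3d, Gm4632, Dntt, Mcub, Endou, Skap1, 1700048O20Rik, Tubb3, Epcam, Trat1 and Ets1 named below. It also held there for the leading lower genes Mcpt8, Tgm2, Cox4i2, Mef2c and Ncf1. In experiment 2 it held for the leading higher genes Mcub, Endou, 1700048O20Rik, Trat1 and Ets1 and for the leading lower genes Mcpt8, Ccr2, Tgm2 and Ncf1. For genes listed in both experiments, the same direction in both is read with this limit. The interval covers counting error only, not variation between samples, so the calls describe these libraries. By this rule 53 of 5530 genes (0.958%) were higher and 23 (0.416%) were lower in the Bcl11b-expressing cells of experiment 1, Bcl11b itself included. In experiment 2 the counts were 64 of 5128 (1.25%) and 30 (0.585%). Of these, 37 genes were higher in both experiments, which is 69.8% and 57.8% of the 2 lists, and 13 were lower in both, 56.5% and 43.3%. No gene was called in opposite directions. The contrast is the one that chose the cells, so these counts support nothing by themselves.

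CD3 chain genes led the difference. Cd3g, which encodes the CD3 gamma chain, stood at 568 CPM in Bcl11b-expressing and 49.4 in Bcl11b-zero cells of experiment 1, an 11.5-fold ratio, and at 918 and 106 CPM in experiment 2, 8.63-fold. Over the 6 hashtags of experiment 1 with at least 20 Bcl11b-expressing cells, Cd3g had a lowest level of 198 CPM, a median of 668 and a highest of 752, against 6.74 to 140 CPM in their Bcl11b-zero cells. In the 6 such hashtags of experiment 2 the lowest was 429, the median 745 and the highest 1816 CPM, against 41.6 to 336. The 2 groups did not overlap in either experiment, and Cd3g was higher in 6 of 6 hashtags in each.

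The size of this ratio moved with the mix of hashtags. Hashtags rich in Bcl11b-expressing cells also had more Cd3g in their Bcl11b-zero cells: 132 and 140 CPM under hashtags 3 and 4 of experiment 1, against 6.74 CPM under hashtag 7. With the Bcl11b-zero cells weighted to the hashtags of the Bcl11b-expressing cells, the Cd3g ratio was 6.64 in experiment 1 (6.44 to 6.85) and 4.94 in experiment 2 (4.83 to 5.05). Cd3d, the CD3 delta chain, was 86.8 against 6.69 CPM in experiment 1 (12.97-fold; 7.18-fold weighted) and 238 against 34.1 CPM in experiment 2 (6.98-fold; 3.85-fold weighted), again higher in 6 of 6 hashtags of each. The Bcl11b-zero cells of experiment 2 include 82 cells with a Cd8b1 UMI, and without them the Cd3d ratio was 13.3 and the Cd3g ratio 10.1. Cd3e, the CD3 epsilon chain, lay under the level minimum in both experiments, at 15.5 against 2.25 and 25.9 against 8.80 CPM.

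Single cells showed the same order. With each cell thinned to 10000 UMIs, 60.7% of Bcl11b-expressing cells of experiment 1 had a Cd3g UMI (56.5 to 64.9) against 11.1% of Bcl11b-zero cells (10.1 to 12.01). Without thinning the shares were 67.8% and 14.7%. In experiment 2 they were 74.1% (71.0 to 77.0) and 18.7% (17.2 to 20.2) thinned, and 81.5% and 26.2% without. Barcodes with at least 20 UMIs of stromal genes gave 2.63% in experiment 1 (1 of 38 thinned barcodes, up to 13.8%) and 7.55% in experiment 2 (5.47 to 10.1). Their median depths were 34773 and 38048 UMIs. These stromal-marked barcodes are not pure stroma and set no floor for any gene. Without thinning, 27.7% of those of experiment 2 had an Lck UMI and 8.45% a Bcl11b UMI. The thinned shares leave out 27 and 63 Bcl11b-expressing cells with fewer UMIs.

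Cd3g and Cd3d are neighbours on mouse chromosome 9 (GRCm38), at 44969572 to 44980431 on the minus strand and 44981769 to 44987052 on the plus strand, and are read in opposite directions from a short shared interval. The 250 bases before the transcript start that the promoter table gives for each are shown because these 2 genes led the comparison, with the E-box CAGGTG, or CACCTG on the other strand, in capitals; E-boxes are the letters that E proteins such as those encoded by Tcf3 and Tcf12 bind. The window before Cd3g is chr9:44980432-44980681 on the minus strand and holds 2 matches. The window before Cd3d is chr9:44981536-44981785 on the plus strand and holds 1. Its last bases lie within the gene's outer limits, because another annotated transcript starts further upstream. Sequences are from RefSeq, GRCm38.p6, and run 5′ to 3′.

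Cd3g: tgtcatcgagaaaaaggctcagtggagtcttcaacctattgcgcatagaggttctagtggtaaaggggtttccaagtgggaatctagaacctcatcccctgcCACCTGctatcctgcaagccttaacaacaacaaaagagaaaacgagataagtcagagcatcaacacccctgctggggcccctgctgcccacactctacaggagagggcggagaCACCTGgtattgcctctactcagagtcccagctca
Cd3d: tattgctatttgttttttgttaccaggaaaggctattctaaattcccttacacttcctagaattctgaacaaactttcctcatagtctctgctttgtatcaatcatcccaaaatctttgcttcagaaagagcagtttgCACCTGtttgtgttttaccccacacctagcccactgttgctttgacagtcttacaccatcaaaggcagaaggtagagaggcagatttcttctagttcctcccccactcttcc

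A promoter window was found for 12 of the 15 leading higher genes and for 12 of the 15 leading lower genes named below. The E-box occurred in 4 of the 12 higher genes (Cd3d, Cd3g, Epcam, Pgam2) and in 2 of the 12 lower genes (Ctsg, Mcpt8), against 17.1% of all 27025 promoter windows of this length. The Runx letters TGTGGT, or ACCACA, occurred in 1 higher gene (Trat1) and 4 lower genes (Bex6, Ctsg, Mcpt8, Serpina3g), against 14.2% of all windows. Other motifs were searched too. The Tcf/Lef letters CTTTGA occurred in 3 higher and 2 lower genes, against 14.05% of all windows. The Gata letters AGATAA occurred in 2 and 2, against 10.25%, and the Ets letters GAGGAA in 3 and 5, against 23.1%. For each, matches on the other strand were counted as well. A match is a description of the letters in the window, not a binding site.

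Of the 12 genes for CD3, pre-T-cell receptor and T-cell receptor chains, 8 in experiment 1 and 9 in experiment 2 met the level minimum. All of them had ratios above 1, with 4 and 5 called higher and a median log2 ratio of 1.06 and 1.16, against 0.03 and 0.01 over all genes compared. Beside Cd3g and Cd3d these were Trdc, the receptor delta constant region (99.8 against 44.1 CPM, and 218 against 70.4), Tcrg-C4, a receptor gamma constant region (115 against 49.5, and 190 against 85.0), and, in experiment 2, the signalling chain Cd247 (42.0 against 12.95). Cd3d in experiment 1 and Cd247 in experiment 2 met the minimum only through the Bcl11b-expressing cells. The constant regions Trbc1 and Trbc2, at 727 and 969 CPM in experiment 1, were 1.93- and 1.20-fold the Bcl11b-zero level. The near-identical Trbc and Tcrg constant regions share reads, so the split between their members is uncertain. Ptcra reached 5.65 against 1.35 CPM in experiment 1 and 15.6 against 2.25 CPM in experiment 2, under the minimum in both. The ratio of experiment 2 was 6.94, and 4.58 without hashtag 4. Its highest level was 42.5 CPM, under hashtag 4 of experiment 2, where 181 UMIs were counted, against at most 25.4 CPM under any other hashtag. A Ptcra UMI was seen in 7.30% of the Bcl11b-expressing cells (2.16% of Bcl11b-zero cells) in experiment 1 and in 16.97% (3.41%) in experiment 2; in stromal-marked barcodes of experiment 2 it was 2.52%.

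Genes for receptor rearrangement followed; of 6 listed, 3 and 2 met the minimum and 1 was called, higher in both experiments. Dntt, the terminal transferase that adds bases at receptor joints, was 92.0 against 17.5 CPM in experiment 1 (5.26-fold) and 244 against 39.4 CPM in experiment 2 (6.19-fold), higher in 6 of 6 hashtags of each. Its level in Bcl11b-expressing cells varied widely: 18.7 CPM at the lowest, a median of 150 and 379 at the highest in experiment 1, and 86.8, 296 and 461 CPM in experiment 2. Hashtags 3 and 4 of experiment 1, which were richest in Bcl11b-expressing cells, had the lowest Dntt (18.7 and 20.2 CPM). Weighted to the same hashtags, the Dntt ratios were 8.24 and 5.17. Rag1, a subunit of the recombinase, was 10.6 against 2.15 CPM and 18.1 against 3.90, and Rag2 was 13.1 against 5.16 and 18.3 against 4.65. Both lay under the minimum, as did Lig4, the joining ligase, at 12.6 against 4.40 and 10.4 against 3.14 CPM.

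**Figure D2:**
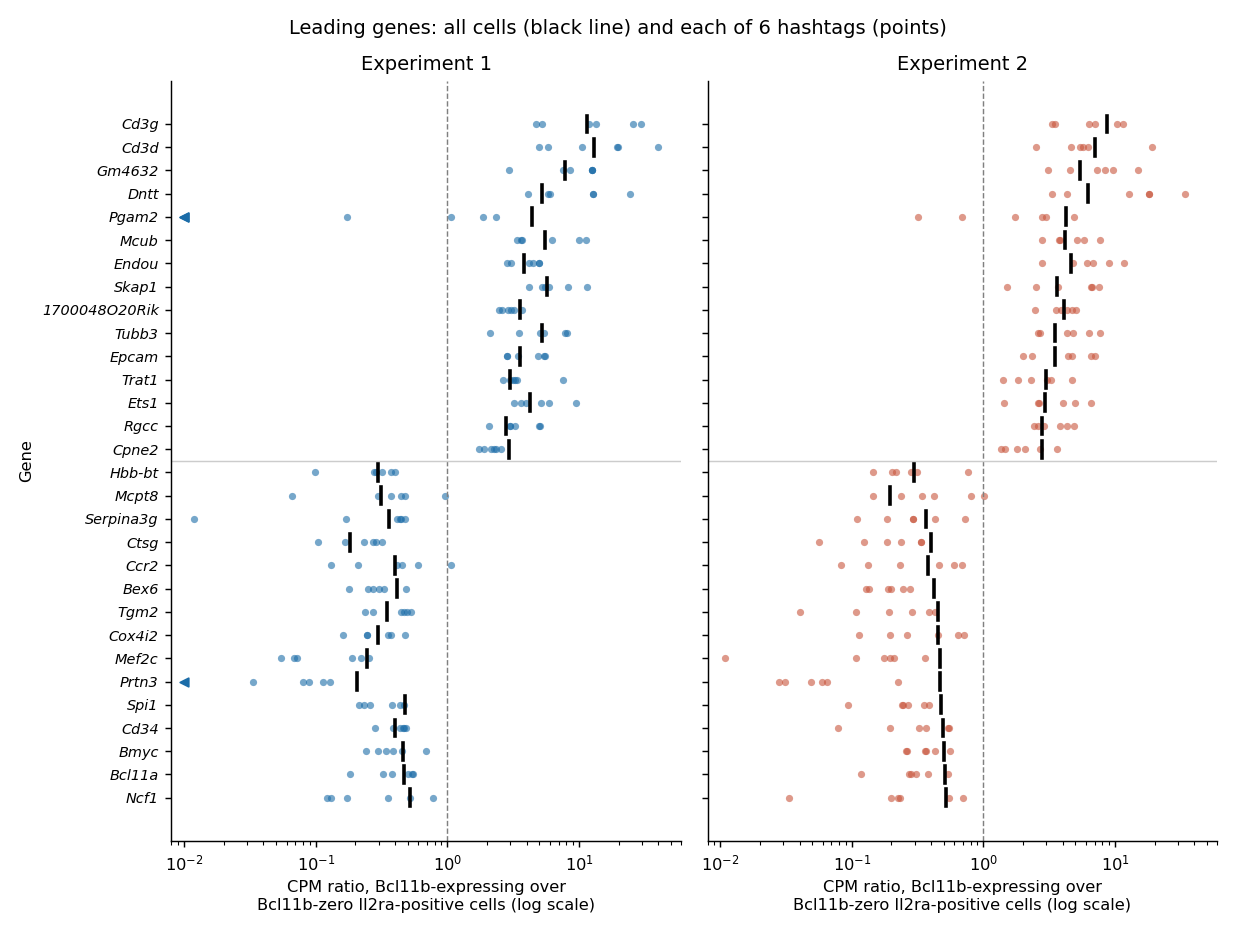
CPM ratio of Bcl11b-expressing over Bcl11b-zero cells (horizontal axis, log scale) for the 15 leading higher and 15 leading lower genes, in experiment 1 (left) and experiment 2 (right). Black lines give the ratio over all cells, points the ratio within each of 6 hashtags and triangles ratios under 0.01; Cd3g and Cd3d lie above 1 in every hashtag, while Pgam2 lies above 1 in 3 and 4 hashtags.

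T-cell signalling genes were partly higher. Of the 20 listed, 11 and 10 met the minimum, with 3 and 4 called higher, none called lower, and median log2 ratios of 0.83 and 0.69. The adaptor Skap1 was 71.4 against 12.4 CPM and 94.6 against 26.2. The surface glycoprotein Thy1 was 256 against 87.5 and 245 against 98.7 CPM, and Lat, the scaffold below the receptor, 153 against 64.1 and 196 against 86.7. Lck stood at 219 against 112 CPM in experiment 1 (1.95-fold, not called) and 246 against 119 CPM in experiment 2 (2.06-fold, called); weighted to the same hashtags it was 1.64- and 1.90-fold and not called in either. It was higher in 6 of 6 hashtags of each experiment, from 133 to 270 CPM with a median of 219 in experiment 1 and from 173 to 415 with a median of 265 in experiment 2. Themis, which sets receptor signals in thymocytes, was low but 8.69 against 0.822 CPM and 15.4 against 2.40. Fyn, Lcp2, Tespa1 and Cd27 had ratios between 0.876 and 1.31.

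Most regulators of the T-cell program differed by less than 2-fold. Of 20 listed, 15 and 14 met the minimum, with 2 and 1 called higher and none lower. Ets1 was 42.9 against 10.2 CPM and 38.3 against 13.1, in 6 of 6 hashtags of each. Id3, an inhibitor of E proteins, was 39.1 against 17.2 CPM in experiment 1, called, and 69.2 against 63.9 CPM in experiment 2. Its ratio in experiment 1 was 1.86 without hashtag 5 and 1.94 without hashtag 1, no longer called. Tcf7, which encodes TCF-1, was 280 against 188 CPM and 197 against 137, and Gata3 was 143 against 85.2 and 86.9 against 54.3. Lef1, a relative of Tcf7, lay just under the minimum at 25.8 against 6.65 and 27.4 against 10.3 CPM. Of 9 Notch pathway genes 4 and 3 met the minimum and none was called: Notch1 was 1.53- and 1.64-fold, its target Hes1 1.62- and 1.65-fold, Dtx1 0.903- and 0.957-fold, and Notch3 reached 6.00 against 1.97 and 8.32 against 3.58 CPM.

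The Runx genes that the vectors targeted were not called. Runx1 was 103 against 106 CPM in experiment 1 (0.972-fold; 1.34-fold weighted to the same hashtags) and 87.0 against 71.9 CPM in experiment 2 (1.21-fold; 1.41-fold weighted). Over hashtags, Runx1 in Bcl11b-expressing cells ranged from 34.5 CPM (hashtag 3) through a median of 130 to 385 CPM (hashtag 7) in experiment 1, and from 29.4 (hashtag 2) through 90.2 to 162 CPM (hashtag 8) in experiment 2. Runx3 was 133 against 163 CPM and 99.4 against 138, higher in 1 of 6 and 0 of 6 hashtags. Counts of Runx1 do not separate vector from mouse transcripts, and a gene cut by Cas9 can still be counted, so the level of a hashtag names no condition.

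The other leading higher genes were of varied function. Gm4632, a gene of unknown role, was 59.5 against 7.61 CPM and 120 against 22.02. The remaining ones were Mcub, a subunit of the mitochondrial calcium channel (5.51- and 4.13-fold), Endou, an endoribonuclease (3.85- and 4.66-fold), 1700048O20Rik (3.57- and 4.12-fold), Tubb3, a tubulin (5.26- and 3.53-fold), Epcam, an adhesion molecule (3.54- and 3.53-fold), Trat1, a receptor-associated adaptor (2.97- and 3.01-fold), Rgcc, a regulator of the cell cycle (2.78- and 2.79-fold), and Cpne2, a copine (2.92- and 2.78-fold). These 9 genes were higher in 6 of 6 hashtags of both experiments, Gm4632 included.

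Pgam2, the muscle form of phosphoglycerate mutase, did not share this pattern. It stood at 212 against 48.1 CPM (4.40-fold) and 273 against 64.7 CPM (4.23-fold) over all cells, but was higher in 3 of 6 and 4 of 6 hashtags. In Bcl11b-expressing cells it reached 440 and 411 CPM under hashtags 3 and 4 of experiment 1, and 1070 and 935 CPM under hashtags 2 and 4 of experiment 2. Every other hashtag lay at 36.5 CPM or less. The Bcl11b-zero cells of the same 4 hashtags held 188, 222, 382 and 311 CPM, against at most 7.74 CPM elsewhere. Weighted to the same hashtags, the ratio was 2.05 and 2.91. Without hashtag 4 the ratio of experiment 2 was 2.73 and without hashtag 2 it was 6.22.

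**Figure D3:**
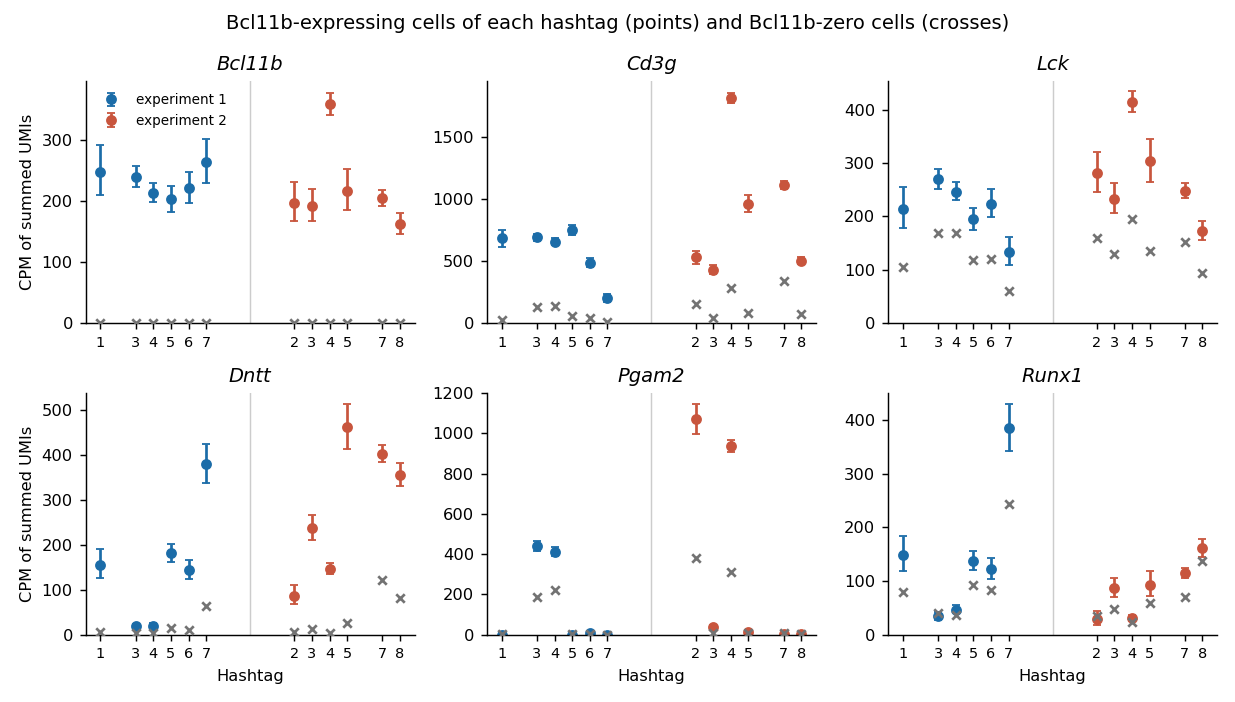
CPM of 6 genes (vertical axes) in the Bcl11b-expressing cells of each hashtag with at least 20 such cells (points, with exact 95% intervals for counting error) and in Bcl11b-zero cells of the same hashtag (crosses), experiment 1 to the left and experiment 2 to the right of the line. Cd3g is higher in Bcl11b-expressing cells of every hashtag, Pgam2 is high under hashtags 3 and 4 of experiment 1 and 2 and 4 of experiment 2, and Runx1 ranges from 29.4 to 385 CPM.

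Progenitor genes tended to be lower. Of 22 listed, 11 met the minimum in each experiment, all 11 had ratios below 1, and 4 and 5 were called lower, with median log2 ratios of -0.79 and -0.96. Spi1 was 66.4 against 141 CPM and 74.5 against 155, lower in 6 of 6 hashtags of each, with 21.9 to 72.7 CPM by hashtag in experiment 1 and 14.7 to 60.02 in experiment 2; Bcl11b-zero cells held at least 77.6 CPM in every one of these hashtags, so the groups did not overlap. In thinned cells a Spi1 UMI was found in 33.3% of Bcl11b-expressing and 66.6% of Bcl11b-zero cells of experiment 1. In experiment 2 the shares were 31.5% and 61.4%. Stromal-marked barcodes gave 15.8% (6.02 to 31.25) in experiment 1 and 25.05% (21.45 to 28.91) in experiment 2. The stem and progenitor marker Cd34 was 49.5 against 124 and 46.8 against 95.4 CPM. Mef2c, a regulator of lymphoid and myeloid progenitors, was 18.3 against 74.9 CPM and 33.6 against 71.7. Bcl11a, a paralogue of Bcl11b, was 39.3 against 84.0 (called) and 30.1 against 58.6 CPM (0.514-fold, not called). Lmo2, a progenitor cofactor, was 7.86 against 30.2 CPM in experiment 1, under the minimum, and 15.9 against 33.4 in experiment 2. In single-hashtag Bcl11b-expressing cells of experiment 2, Bcl11a reached at most 20.03 CPM and Lmo2 at most 7.66 CPM under any hashtag with at least 20 of them. Kit, by contrast, differed little: 64.9 against 71.5 CPM (0.907-fold) and 33.9 against 41.1 CPM (0.825-fold), lower in 6 of 6 and 5 of 6 hashtags.

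In single-hashtag cells of experiment 2 the lower genes lay further from 1. Spi1 was 32.8 against 147 CPM there (0.222-fold, against 0.480 with all cells), Mef2c 7.30 against 63.5 (0.115, against 0.468), Cd34 23.3 against 90.4 (0.257, against 0.490) and the granule protease Prtn3 5.44 against 130 CPM (0.0417, against 0.469). With single-hashtag cells alone 97 genes were called higher and 61 lower in experiment 2. The calls with all cells were close to the 2-fold limit: without hashtag 4 the ratios of Spi1, Mef2c, Cd34 and Prtn3 were 0.512, 0.514, 0.540 and 0.544 and no longer called, and the count of lower genes was 19. Without hashtag 7 they were 0.534, 0.524, 0.522 and 0.523, and without hashtag 3 the count of lower genes was 38. In these fits the doublet barcodes stay in.

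Of the 15 leading lower genes 14 were called in experiment 1 and 13 in experiment 2. Hbb-bt, a beta globin gene, was the most abundant: 635 against 2131 CPM (0.298-fold) and 594 against 1991 CPM (0.299-fold), lower in 6 of 6 hashtags of each. The Bcl11b-expressing cells ran from 169 through a median of 581 to 996 CPM in experiment 1 and from 361 through 402 to 1034 CPM in experiment 2. Its near-identical copy Hbb-bs stood at 0.827 and 0.851 CPM, and Hba-a2, an alpha globin gene, had no UMI in Bcl11b-expressing cells of either experiment. In cells thinned as for Cd3g, 56.3% of Bcl11b-expressing and 82.9% of Bcl11b-zero cells of experiment 1 had an Hbb-bt UMI. In experiment 2 the shares were 44.9% and 73.1%. Stromal-marked barcodes gave 39.5% (24.04 to 56.61) and 33.15% (29.2 to 37.28). The source of their Hbb-bt UMIs was not tested. Myeloid granule and basophil proteases were among the others: Ctsg at 0.181- and 0.397-fold, Prtn3 at 0.206- and 0.469-fold and Mcpt8 at 0.313- and 0.193-fold. The chemokine receptor Ccr2 (0.400 and 0.378), the serpin Serpina3g (0.357 and 0.366), Bex6 (0.411 and 0.420), the transglutaminase Tgm2 (0.3497 and 0.4497) and the oxidase isoform Cox4i2 (0.295 and 0.455) completed this group with Bmyc (0.457 and 0.497) and Ncf1, an oxidase subunit that was not called in either (0.521 and 0.519). Weighted to the same hashtags, Cox4i2 in experiment 1 and Tgm2 in experiment 2 lay under the level minimum and lost their calls.

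Innate lymphoid genes gave no single direction: of 20 listed, 6 and 7 met the minimum, with 2 called higher in experiment 1 and 3 called lower in experiment 2. Gzma, granzyme A, was the most abundant of them, at 3522 against 1327 CPM in experiment 1 (2.66-fold) and 2814 against 1520 CPM in experiment 2 (1.85-fold), higher in 6 of 6 hashtags of each. Zbtb16, which encodes PLZF, was 34.7 against 12.7 CPM in experiment 1, called, but higher in 4 of 6 hashtags and 1.59-fold when weighted to them. It was 15.9 against 9.06 CPM in experiment 2, under the minimum. Its high levels, 64.4 and 57.4 CPM in experiment 1 and 54.9 and 40.1 CPM in experiment 2, stood under hashtags 3 and 4 and hashtags 2 and 4, where Pgam2 was also high. In experiment 2 Gzmb (44.8 against 198 CPM), Gzmc (1.01 against 76.4) and Xcl1 (0.426 against 57.7) were lower, and in experiment 1 Gzmb was 122 against 145 CPM. Cells with a Cd8b1 UMI, 82 in the Bcl11b-zero group of experiment 2 and 1 in experiment 1, bear on these genes, since the rule excludes Cd8b1 from the Bcl11b-expressing cells only. Without those cells the ratio of Gzmb was 0.349 in experiment 2, against 0.226 with them, and it was still called. Gzmc and Xcl1 met the minimum only through the Bcl11b-zero group, and without those cells they stood at 5.45 and 15.6 CPM there, under the minimum, so that neither was called.

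Of 10 listed genes of mature T cells, 0 met the minimum in experiment 1 and 1 in experiment 2, while their summed level was 52.5 against 22.6 CPM (2.32-fold) and 74.8 against 67.7 CPM (1.10-fold). The co-receptor and receptor genes were near 0 in the Bcl11b-expressing cells: Cd4 at 0 and 0.0387 CPM, Cd8a at 0.0689 and 0.271 CPM and Trac, the receptor alpha constant region, at 0.276 and 1.05 CPM. Foxp3 had no UMI in them in either experiment, whereas Itgae, an integrin subunit, stood at 18.6 against 4.40 and 13.7 against 3.77 CPM, under the minimum. Ctla4, listed with them, was 19.1 against 2.73 CPM in experiment 1, under the minimum, and 35.1 against 10.2 CPM in experiment 2, called higher. In experiment 2 Ctla4 met the minimum only through the Bcl11b-expressing cells. Ccr9, the receptor for a thymic chemokine, was low at 1.86 against 0.0484 and 5.42 against 0.274 CPM. Ly6d, a lymphoid surface protein, was 260 against 95.6 and 279 against 88.8 CPM, and Ifngr1, the interferon gamma receptor, 157 against 57.8 and 181 against 67.3. Il7r, the interleukin 7 receptor, was 38.9 against 19.1 CPM, called, and 43.8 against 24.4, not called. Its ratio in experiment 1 was 1.88 to 1.96, no longer called, when hashtag 1, 2, 5 or 6 was left out. In the list of 11 cytokine receptors 6 met the minimum in each experiment, with 2 and 1 called higher, and in the list of 12 homing and surface genes 8 did, with 1 called higher, Ly6d. Of 9 survival genes 4 met the minimum and none was called. Bcl2 counts, 1.87- and 1.85-fold, do not separate the transgene from the mouse gene.

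Cell cycle genes differed by small amounts. All 20 genes of G2 and mitosis had ratios above 1 in both experiments, none was called, and the median log2 ratio was 0.38 and 0.41. Genes of S phase stayed near 0, with medians of 0.05 and 0.04 and 12 and 13 of 20 above 1. For glycolysis 12 of 13 genes had ratios below 1, none called, with medians of -0.20 and -0.26. Of 9 genes of G1 and D cyclins 6 met the minimum and none was called. Ccnd3, the cyclin D of thymocytes, was 251 against 159 and 229 against 163 CPM, and Ccnd2 183 against 215 and 154 against 184.

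**Figure D4:**
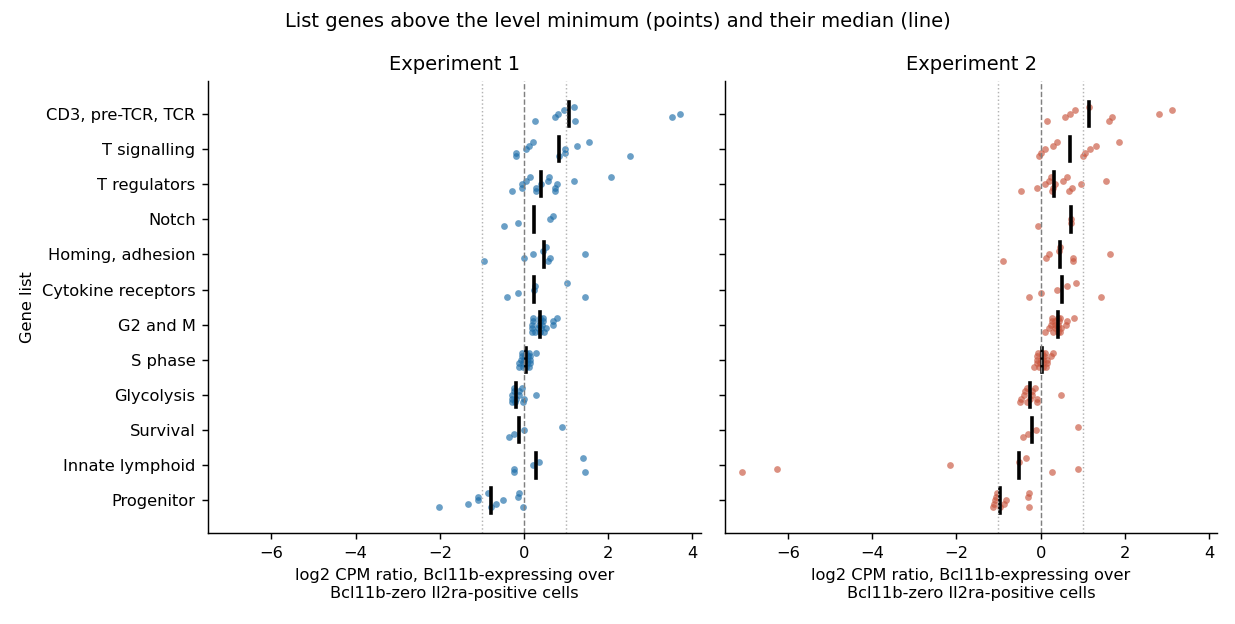
log2 CPM ratio of Bcl11b-expressing over Bcl11b-zero cells (horizontal axis) for every gene of 12 lists that met the level minimum (points) with the median of each list (black line), experiment 1 left and experiment 2 right; dotted lines mark 2-fold. All progenitor genes lie below 0 and all genes of G2 and mitosis above 0, while Xcl1 and Gzmc lie far to the left in experiment 2.

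Genes of other cell types were checked for the Bcl11b-expressing cells. Of 14 granulocyte and monocyte genes 3 and 10 met the minimum, and 3 and 6 were called lower. They summed to 76.3 CPM in experiment 1, with 42.1 to 66.9 CPM by hashtag. In experiment 2 they summed to 1200 CPM over all Bcl11b-expressing cells but to 62.6 to 122 CPM by hashtag in single-hashtag cells. Of 9 stromal genes, Igfbp7 was called higher in experiment 1 (2.64-fold, in 3 of 6 hashtags) and Sparc lower in experiment 2. The stromal list summed to 74.4 and 221 CPM (5.02 to 184, and 18.7 to 226, by hashtag), with Lum and Dcn at 0 in experiment 1. In the list for B cells the sum was 43.6 and 102 CPM, with Pax5 at 0 in experiment 1, with no gene called, and the erythroid list, 642 and 600 CPM, was Hbb-bt with almost nothing else. Of 7 mast cell and basophil genes 2 met the minimum, with Mcpt8 called lower, and of 10 ILC2 genes 2 and 1 did, with none called. Dendritic cell genes, of which 5 met the minimum and none was called, summed to 680 and 963 CPM (223 to 948, and 273 to 1405, by hashtag), of which Bst2 gave 466 and 427. Their part in the differences above was not tested beyond the values in single-hashtag cells.

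The threshold of 3 UMIs did not mark a step in these levels. Among Il2ra-positive Cd8b1-zero cells of experiment 1, Cd3g stood at 49.4 CPM with 0 Bcl11b UMIs, 192 with 1, 263 with 2, 459 with 3 to 5, 674 with 6 to 10 and 1100 with over 10. In experiment 2 the same classes held 91.2, 419, 591, 816, 995 and 1327 CPM. Just outside the threshold were 257 and 361 cells with 2 UMIs, and just inside 184 and 275 cells with exactly 3, in which Cd3g was 376 and 725 CPM. The step in ratio was larger between the classes with 0 and 1 UMI than between any later neighbours. Spi1 ran the other way in experiment 1, from 141 CPM at 0 UMIs through 88.0, 84.7, 73.2 and 60.2 to 31.6. In experiment 2 it was 158 CPM at 0 UMIs, 89.8 at 1 and 70.8 to 82.3 in the later classes. In single-hashtag cells of experiment 2 the same classes held 151, 62.6, 43.7, 32.4, 34.3 and 30.6 CPM. Of the 15 leading higher genes, 12 were higher at every class than at the one before in experiment 1 and 6 in experiment 2. Of the 15 leading lower ones, 9 and 2 were lower at every class. The classes above the threshold differed in depth, with medians of 23024 to 28964 UMIs in experiment 1 and 22878 to 25329 in experiment 2.

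**Figure D5:**
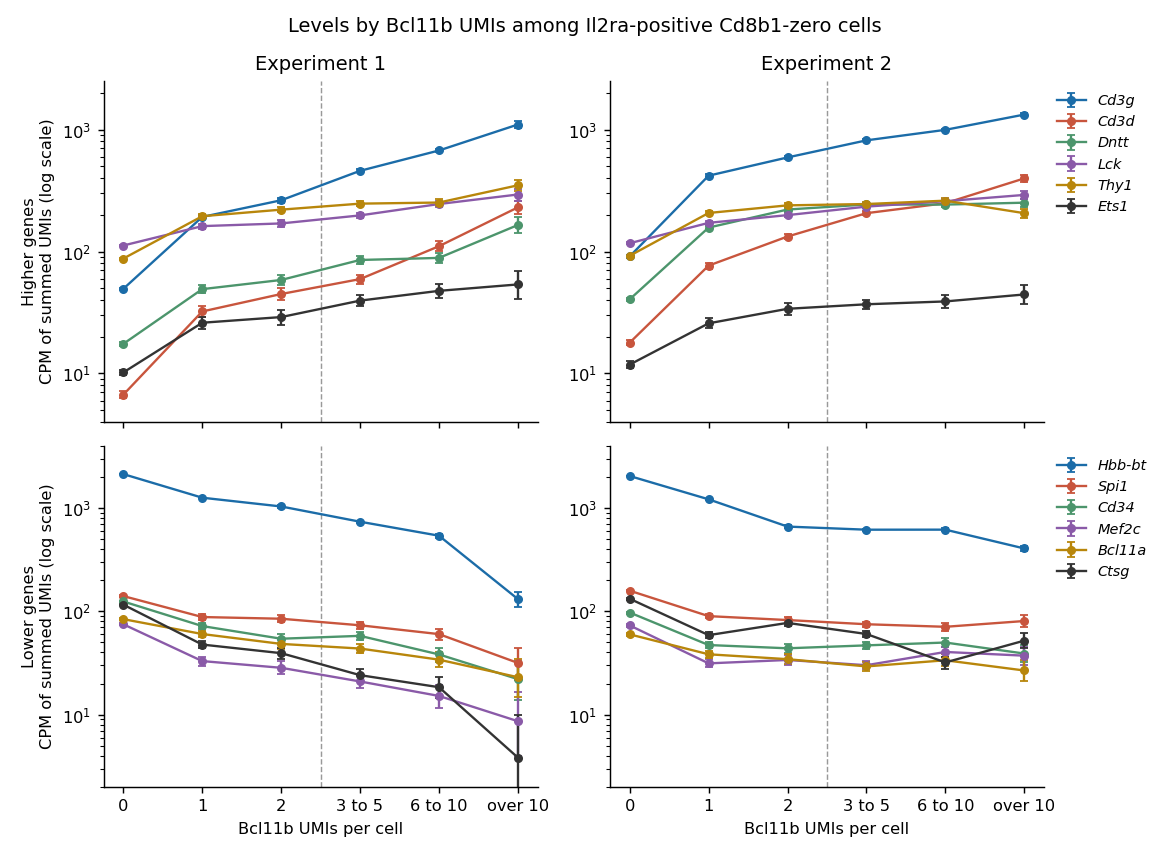
CPM (vertical axes, log scale) in Il2ra-positive Cd8b1-zero cells grouped by Bcl11b UMIs per cell, with 6 genes higher (top) and 6 genes lower (bottom) in Bcl11b-expressing cells, experiment 1 left and experiment 2 right; whiskers are exact 95% intervals for counting error and the dashed line marks the threshold. Cd3g is higher at each class than at the one before, with 49.4 CPM at 0 UMIs and 1100 CPM at over 10 in experiment 1.

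Levels in the Bcl11b-expressing cells also varied between hashtags, in T-cell genes such as Id3 and Dntt among others. Where the mean was 50 CPM or more, the top hashtag exceeded the bottom one by 4-fold or more for 38 of 2910 genes (experiment 1) and for 56 of 2638 genes (experiment 2), while the typical gene had a ratio of 1.35 and 1.38 (medians). The largest differences in experiment 1 were in Id3 (186 CPM under hashtag 7, 6.90 under hashtag 3), Dntt, Gm4632, Nrgn (977 under hashtag 3, 48.9 under hashtag 7), Ly6a (548 under hashtag 6, 28.9 under hashtag 3) and Ctla2a (559 under hashtag 1, 30.2 under hashtag 3). In experiment 2 they were in Cd74 (399 under hashtag 4, 7.46 under hashtag 7), Ly6a (677 under hashtag 3, 12.8 under hashtag 2) and Ctla2a (544 under hashtag 7, 25.5 under hashtag 2). Nrgn was at its highest, 1079 CPM, under hashtag 2 and at 67.9 CPM under hashtag 8.

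Kit UMIs split the cells. A Kit UMI was found in 389 of 562 Bcl11b-expressing cells of experiment 1 (69.2%, 65.2 to 73.0) and 460 of 919 of experiment 2 (50.1%, 46.8 to 53.3); cells with one had more UMIs in all, with medians of 25292 against 20608 and 28525 against 19929. In experiment 1 7 genes (0.127%), Kit included, were called higher with Kit and 14 (0.253%) lower, of 5531. Dntt was 64.1 CPM with Kit and 174 without, Gm4632 40.3 and 116, Ctla4 13.6 and 35.5, and the adaptor Sh2d1a 11.8 and 35.5, while Itga2b (58.6 and 25.9) and Fgf3 (131 and 63.0) were higher with Kit. In experiment 2 17 genes (0.329%) were higher and 4 (0.0775%) lower of 5163. Dntt was again lower, at 169 against 354 CPM. Granulocyte genes such as Camp (54.5 and 1.15) and Prtn3 (114 and 28.8) led the higher ones there, and in single-hashtag cells the count of higher genes was 7. With cells thinned to 10000 UMIs the counts were 4 higher and 2 lower in experiment 1 and 6 and 2 in experiment 2. Bcl11b itself was 197 with and 240 CPM without Kit in experiment 1, and 174 and 230 in experiment 2.

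Clustering the Bcl11b-expressing cells by their own transcripts gave 4 groups in experiment 1. Cluster 1 (216 cells) led with Id1, Id3, Dntt and Gm4632, cluster 2 (146 cells) with the class II genes H2-Eb1, H2-Ab1, H2-Aa and Cd74 and with Gsn, cluster 3 (121 cells) with Pgam2, Nusap1, Gsn and Tuba8, and cluster 4 (79 cells) with Iigp1, Pimreg, Ube2c and Cep55, genes of mitosis among them. The 20 genes of G2 and mitosis summed to 5978 CPM in cluster 3 and 6120 in cluster 4. In clusters 1 and 2 they summed to 2089 and 1262 CPM. The most common hashtag was 5 in cluster 1 (55 of 193 single cells), 3 in cluster 2 (65 of 127) and 4 in cluster 3 (57 of 113). Cd3g stood between 473 and 679 CPM in all 4.

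Experiment 2 gave 7 clusters. Cluster 1 (226 cells) led with Gm15518, Tnfrsf9 and Pgam2, and cluster 4 (108 cells) with Pgam2 and Afdn. Pgam2 stood at 766 and 1115 CPM in them, and both came mostly from hashtag 4 (140 of 165 and 77 of 86 single cells). Mitosis genes led cluster 2 (207 cells), and Ung, Gm4632, Abcb9 and Dntt led cluster 3 (205 cells). In both hashtag 7 was most common. The genes of G2 and mitosis summed to 6392 CPM in cluster 4 and 5369.5 in cluster 2, against 993 to 4094 CPM in the other clusters. Cluster 6 (66 cells) led with Bex1, Cd2 and Sh2d1a, at 50.4, 63.4 and 218 CPM, and 40 of its 56 single cells were from hashtag 8. Cluster 5 (89 cells) led with Elane, Mpo and Prtn3 and cluster 7 (18 cells) with Ccl2 and Meis2; 96.6% and 88.9% of their cells had more than 1 hashtag. Their median UMIs were 49598 and 62555, and their Cd3g 456 and 169 CPM, against 325 CPM in cluster 6 and 926 to 1602 CPM in the others. Clusters are described by leading genes only, since they were defined from the same transcripts.

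Between experiments, 31 of 5407 genes (0.573%) were called higher in the Bcl11b-expressing cells of experiment 2 and 14 (0.259%) lower. Culture time, library and the mix of hashtags cannot be told apart in this comparison. Cd3d was 86.8 CPM in experiment 1 and 238 in experiment 2 (2.74-fold), with hashtag levels of 40.2 to 122 and 124 to 396 CPM that did not overlap. Dntt was 2.65-fold and Trdc 2.19-fold higher in experiment 2, with overlapping hashtags. Gzmb (122 and 44.8 CPM), Zbtb16 (34.7 and 15.9) and the proto-oncogene Mycn (36.3 and 13.5) were lower, also with overlapping hashtags, and the histone gene Hist1h2an (37.6 and 7.43 CPM) without overlap. S100a9 (0.689 and 400 CPM) and Lyz2 (2.14 and 47.6), genes of granulocytes and monocytes, were among the higher ones, but in single-hashtag cells S100a9 reached at most 21.7 CPM under any hashtag of experiment 2. Col1a2 of the stromal list, Col6a1 and Col6a2 were also among the leading higher genes. By hashtag of experiment 2, in single-hashtag cells, their medians were 3.88, 5.83 and 3.48 CPM and their highest levels 65.2, 48.7 and 49.6 CPM. In Bcl11b-zero cells most of the genes named here shifted in the same direction. Ratios of experiment 2 over 1 there were 5.09 for Cd3d, 2.25 for Dntt, 1.6 for Trdc, 81.2 for S100a9 and 0.171 for Hist1h2an. Mycn and Zbtb16 were lower there too, by less, but Gzmb was higher (1.37-fold). Gzmb aside, the direction of these shifts was not particular to the Bcl11b-expressing cells. The Bcl11b-zero cells hold 82 cells with a Cd8b1 UMI in experiment 2 and 1 in experiment 1. The rule removes such cells from the Bcl11b-expressing group only. Leaving them out moved the Gzmb and Cd3d ratios given above, and the shifts between experiments are not given without them. Whether Gzmb is an exception apart from those cells was therefore not tested. With single-hashtag Bcl11b-expressing cells alone the counts were 19 higher and 27 lower. The count of lower genes was 7 without hashtag 7 of experiment 2 and 24 without its hashtag 4.

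Bcl11b was also taken over all single-hashtag cells of each hashtag, members of the rule or not. Among 5315 genes, those whose CPM followed it most closely there over the 16 hashtags were Fam169b (Spearman 0.98), Trbc1 (0.97), Ormdl1 (0.95), Gimap1 (0.94), Tubb3 and Prkca (0.93 each), and those most opposite were Bmyc and H2afy (-0.96 each), Myd88 (-0.95), Trappc5 and Lmo2 (-0.94 each). The 16 points share 2 libraries and differ in how many Bcl11b-expressing cells they hold, so these values are descriptions.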

How the data were processed

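The mRNA libraries of both experiments (10x Chromium v3) and their hashtag libraries were used. The mRNA matrices hold raw UMI counts per gene and barcode, deposited by the authors without normalization; the submitters' processing notes name Cell Ranger 3.0.0 and builds mm10 and GRCm38. The deposited hashtag tables hold counts for 8 tags, with no condition stated; whether these count molecules or reads is not given in the sources used here. The members of the group and all gene lists were chosen with earlier results of these data known. Hashtags were called with HTODemux (Seurat 5.3.0, quantile 0.99). UMIs were summed over cells and scaled to 1000000 (CPM); ratios carry exact conditional 95% intervals, CPM exact Poisson and shares Clopper-Pearson intervals, all for counting error only. With 1 library per experiment there was no test. Named genes were the 5 markers, genes of 23 lists, and the 15 higher and 15 lower genes with the largest ratio in one direction in both experiments, ranked by the smaller log2 ratio. Genes of the Kit split, of experiment 2 against 1, of the hashtag spread and of the likeness ranking came from the 10 leading ones, those of clusters from 5. Clusters used scanpy 1.11.5 (Leiden resolution 0.5). The ratio calculation was run on simulated Poisson counts with known fold changes. These counts hold no doublets and no differences between hashtags, so the run checks the calculation and not the calls in these data. Kept cells held 244529631 and 295625937 UMIs. Positions and promoters are from RefSeq GRCm38.p6. Alternatives covered thresholds, doublets, depth, weighting, scaling (TMM in edgeR 4.0.16, size factors in DESeq2 1.42.0), level minimums and each hashtag left out.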

Additional observations from a re-analysis of the deposited data

Results flagged for a closer look

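In 70 values examined over the 6 or 8 hashtags of an experiment, 4 had 1 hashtag far from the others; chance sets about 1 in 20 such groups apart. Hashtag 4 of experiment 2 stood apart in the share of Bcl11b-expressing cells among Il2ra-positive Cd8b1-zero cells, at 50.9% against 25.6% in the next hashtag. It also stood apart in the Bcl11b level of the Bcl11b-expressing cells, at 359 CPM against 216. Skap1 in the Bcl11b-expressing cells of experiment 1 was 122 CPM under hashtag 7, against 81.7 in the next. Hbb-bt in those of experiment 2 was 1034 CPM under hashtag 3, against 520 in the next. No gene of 157 examined lay above 1 in every hashtag of one experiment and below 1 in every hashtag of the other.

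Cells with at least 3 Bcl11b UMIs but no Il2ra UMI lay outside the rule, 41 in experiment 1 and 201 in experiment 2, with median depths of 20828 and 14508 UMIs. Cd3g stood at 218 CPM in those of experiment 1 and 1170 CPM in those of experiment 2, against 49.4 and 106 CPM in Bcl11b-zero cells. Pgam2 was 458 and 851 CPM and Zbtb16 80.0 and 61.3 CPM in them, while Cd4 had no UMI and Cd8a was at 0 and 5.81 CPM.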

How the results depend on the processing

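The number of Bcl11b-expressing cells followed the rule itself: 819 and 1280 in experiments 1 and 2 with at least 2 Bcl11b UMIs, 265 and 456 with at least 5, 188 and 295 with cells thinned to 10000 UMIs, and 651 in single-hashtag cells of experiment 2. Against Bcl11b-zero cells, the level minimum moved the gene counts most: 87 higher and 41 lower in experiment 1 and 104 and 48 in experiment 2 at 10 CPM, 19 and 11, and 24 and 15, at 50 CPM, and 525 and 426, and 538 and 613, with none, where fewer or more genes enter. Listed genes were 9 higher at 50 CPM in experiment 1 and 11 lower in experiment 2, and 45 higher and 37 lower, and 25 and 48, with no minimum. In experiment 2, single-hashtag cells gave 97 higher and 61 lower, leaving out the top 5% of Scrublet scores 51 lower (27 listed), means over cells 50 lower (26 listed) and weighting by hashtag 49 lower; means over cells gave 35 lower in experiment 1. The Kit split gave 4 higher and 2 lower in experiment 1, and 6 and 2 in experiment 2, after thinning, and 7 higher in single-hashtag cells of experiment 2. Resolution 1.0 gave 8 clusters in experiment 1. Experiment 2 against 1 gave 19 higher and 27 lower in single-hashtag cells. The cause of these moves was not tested otherwise.

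Leaving out 1 hashtag at a time gave 50 to 60 higher and 21 to 25 lower genes in experiment 1, and 49 to 69 higher and 19 to 38 lower in experiment 2, with 7 to 23 listed genes lower there, 19 without hashtag 4 and 38 without hashtag 3. Experiment 2 against 1 gave 7 to 24 lower genes. No called gene followed through these alternatives changed direction. Resolution 1.0, single-hashtag cells for the Kit split, and Bcl11b-zero cells without Cd8b1 were chosen after seeing the data. No test was run, paired or not. The 2 groups of cells are paired within each hashtag, and this pairing was used only in description, through ratios within each hashtag and ratios weighted by hashtag. The main ratios pool the hashtags. Weighting moved 74 followed gene values out of the interval of the main ratio and left 16 within it.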
